A study of Homo sapiens with 3 samples.

Results

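Axon guidance ligands and their receptors are the 69 genes, of 34520 rows in the deposited table, whose symbols name semaphorins, plexins, neuropilins, SLITs, ROBO receptors, netrins, the netrin receptors UNC5A to UNC5D and DCC, ephrins or Eph receptors. All 69 were in the table, 35 of them ligands and 34 receptors. They were measured by RNA sequencing in SK-N-BE(2), an established human neuroblastoma line with MYCN amplification. The study compared control cells, labelled Ctrl, with cells given arsenic trioxide (ATO) at 2 µM or 4 µM for 12 h, and by its title ATO is taken to hinder DNA binding by N-Myc, the product of MYCN. Each group was 1 library of 1 line, and what the control cells received in place of ATO is not given in the labels. The spread between cultures is therefore unknown, and differences are described by their size alone, without any test.

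Growing axons and migrating neural crest cells, the embryonic source of neuroblastoma, steer by these cues. Secreted class 3 semaphorins act through neuropilins joined to plexins, and membrane semaphorins bind plexins directly. SLITs bind ROBO receptors and mostly repel, netrins attract through DCC and repel through UNC5 receptors, and ephrins on one cell bind Eph receptor tyrosine kinases on its neighbour. UNC5 receptors and DCC are also called dependence receptors, since they can promote cell death when netrin is absent.

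Levels are FPKM, read fragments scaled to transcript length and library size, so levels of different genes can be set side by side. Fold changes are log2 ratios of FPKM + 1, which understate differences of genes with low levels. Rows averaging 1 FPKM or more across the libraries were considered, 12433 in all, and a gene was called higher or lower (the size rule) when its log2 fold reached 1 or -1. The control, 2 µM and 4 µM libraries had FPKM totals of 256459, 262632 and 246878, with 12606, 12337 and 12149 rows at 1 FPKM or more. HMOX1, the heme oxygenase gene induced by arsenic, had 9.17 FPKM in the control, 808 FPKM at 2 µM and 1770 FPKM at 4 µM. All 9 adrenergic neuroblastoma markers were considered, among them PHOX2A at 136 FPKM in the control, while the Schwann cell factor gene SOX10 had at most 0.0465 FPKM in any library.

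Guidance receptors summed to higher levels in these cells than guidance ligands. The 34 receptors summed to 390 FPKM in the control and the 35 ligands to 148 FPKM. The sum for receptors was 280 FPKM at 2 µM and 288 FPKM at 4 µM. That for ligands was 118 and 111 FPKM, so both sums stood below the control at both doses. Much of the receptor sum lay in UNC5B and UNC5C, which together had 157, 94.7 and 86.5 FPKM in the control, 2 µM and 4 µM libraries. Of the 20 considered receptors, 11 had log2 folds below 0 at 4 µM and 9 above. In the control 16 of the 69 genes had 10 FPKM or more, and at 4 µM 13 had. The order of levels in the control began with UNC5B, UNC5C, PLXNB2, PLXNA4, SEMA3C and SLIT3. At 4 µM it began with UNC5B, SEMA3C, PLXNB2, UNC5C, NRP1 and ROBO1, with PLXNA4 in place 9 and SLIT3 in place 15.

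**Figure D1:**
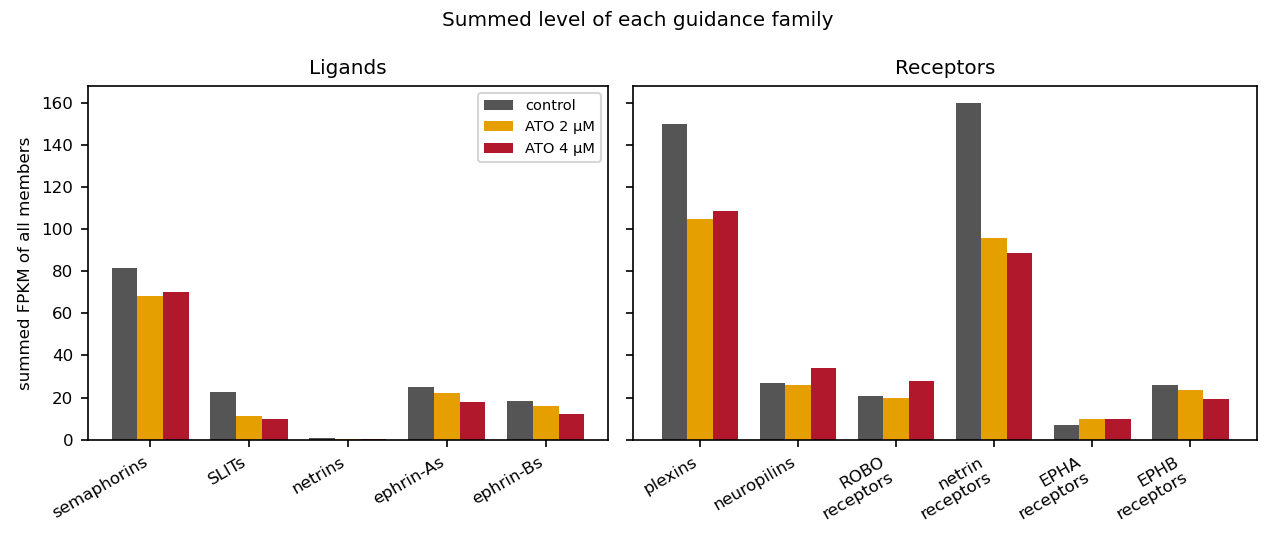
Summed FPKM of all members of each family, ligands on the left and receptors on the right, with bars for the control, ATO 2 µM and ATO 4 µM libraries (1 library each, no error bars). Netrin receptors and plexins had the highest sums, at 160 and 150 FPKM in the control, while netrins summed to 1.03 FPKM.

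Of the 69 genes, 43 were considered, 23 ligands and 20 receptors. At 4 µM, 6 of these 43 were lower by the size rule and 0 were higher. Among all considered rows 5.27% were lower and 4.19% higher, 9.46% in either direction. The lower genes were the receptors PLXNA4 and UNC5C and the ligands SEMA3F, SLIT3, SEMA3D and EFNA1. SEMA3F and SEMA3D were considered only through their value in the control, a selection that favours folds below 0. Of the 6 lower genes, EFNA1 and SEMA3D did not pass after median-of-ratios scaling, and with a pseudocount of 5 PLXNA4 and UNC5C alone passed. At 2 µM PLXNA4 alone was lower, 1 of 43 against 0.901% of all considered rows, and 0 were higher against 1.16%; with a pseudocount of 5 PLXNA4 did not pass there. With a pseudocount of 0.1, or with values rescaled to TPM, 5 were lower at 2 µM (PLXNA4, SEMA3D, SEMA3F, SLIT3 and UNC5A), and with upper-quartile scaling 2 were (PLXNA4 and SLIT3). Between 4 µM and 2 µM 0 of the 43 passed in either direction, against 1.34% lower and 1.14% higher (2.48% in either direction) among all considered rows. With a smaller limit of 0.5, 8 of the 43 were lower at 2 µM and 0 higher, against 6.04% and 6.52% of all considered rows. At 4 µM that limit gave 16 lower and 1 higher, against 22.1% and 13.0%. From 2 µM to 4 µM it gave 5 lower and 0 higher, against 14.3% and 6.39%.

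The median log2 fold of the 43 genes was -0.22 at 2 µM, where that of all considered rows was 0.01. At 4 µM it was -0.39, beside -0.13 over all considered rows. Log2 folds were below 0 for 37 of the 43 at 2 µM and for 31 at 4 µM, where the shares over all considered rows were 48.4% and 59.9%. After median-of-ratios scaling, which brought the median of all considered rows at 4 µM to -0.0033, the median of the 43 genes was -0.28 and 26 were below 0. With that scaling 60.1% of all rows past the size rule at 4 µM were higher, against 44.3% as deposited. For 4 µM against 2 µM these shares were 71.4% and 46.1%, and 60.4% with upper-quartile scaling. Ligands at 4 µM had a median of -0.55 and receptors of -0.06, and the difference between them was not tested. The filter bears on this contrast. The ligands SEMA3D, SEMA3E, SEMA3F and SEMA4D were considered only through their value in the control, which favours folds below 0. The receptor PLXNC1 was considered through its value at 4 µM. After median-of-ratios scaling the medians of ligands and receptors were -0.45 and 0.05, so that of receptors changed sign, with 8 of 20 below 0 in place of 11. From 2 µM to 4 µM the medians were -0.22 for ligands and 0.14 for receptors, with 14 of 20 receptors above 0. Over all 43 genes that median was -0.05, with 24 below 0, beside -0.12 and 63.0% of all considered rows. The sign of this median turned under either scaling, and so did the signs of EPHA2, EPHB3, SEMA6C and SEMA6D under at least one.

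Markers of the cells themselves moved beside the guidance genes. Of the 9 adrenergic markers 8 were lower at 4 µM (median log2 fold -1.46), and their summed level was 1203 FPKM in the control, 660 FPKM at 2 µM and 317 FPKM at 4 µM, with MYCN at 832, 412 and 197 FPKM. Of 6 fibroblast-associated genes 5 were considered and all 5 were lower at 4 µM, with sums of 177, 103 and 59.8 FPKM over the 6, while COL1A2 stayed between 0.391 and 0.597 FPKM. Endothelial markers summed to 2.54, 1.88 and 1.703 FPKM, the 5 Schwann cell genes matched to 2.09, 2.27 and 2.46 FPKM, and the 4 leukocyte genes matched to 0.858, 4.63 and 5.19 FPKM, of which CD68 gave 0.534, 3.69 and 4.87 FPKM. The part of any such cells in the levels of the guidance genes was not tested. In bulk RNA fewer cells of a type and less RNA per cell cannot be told apart.

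**Figure D2:**
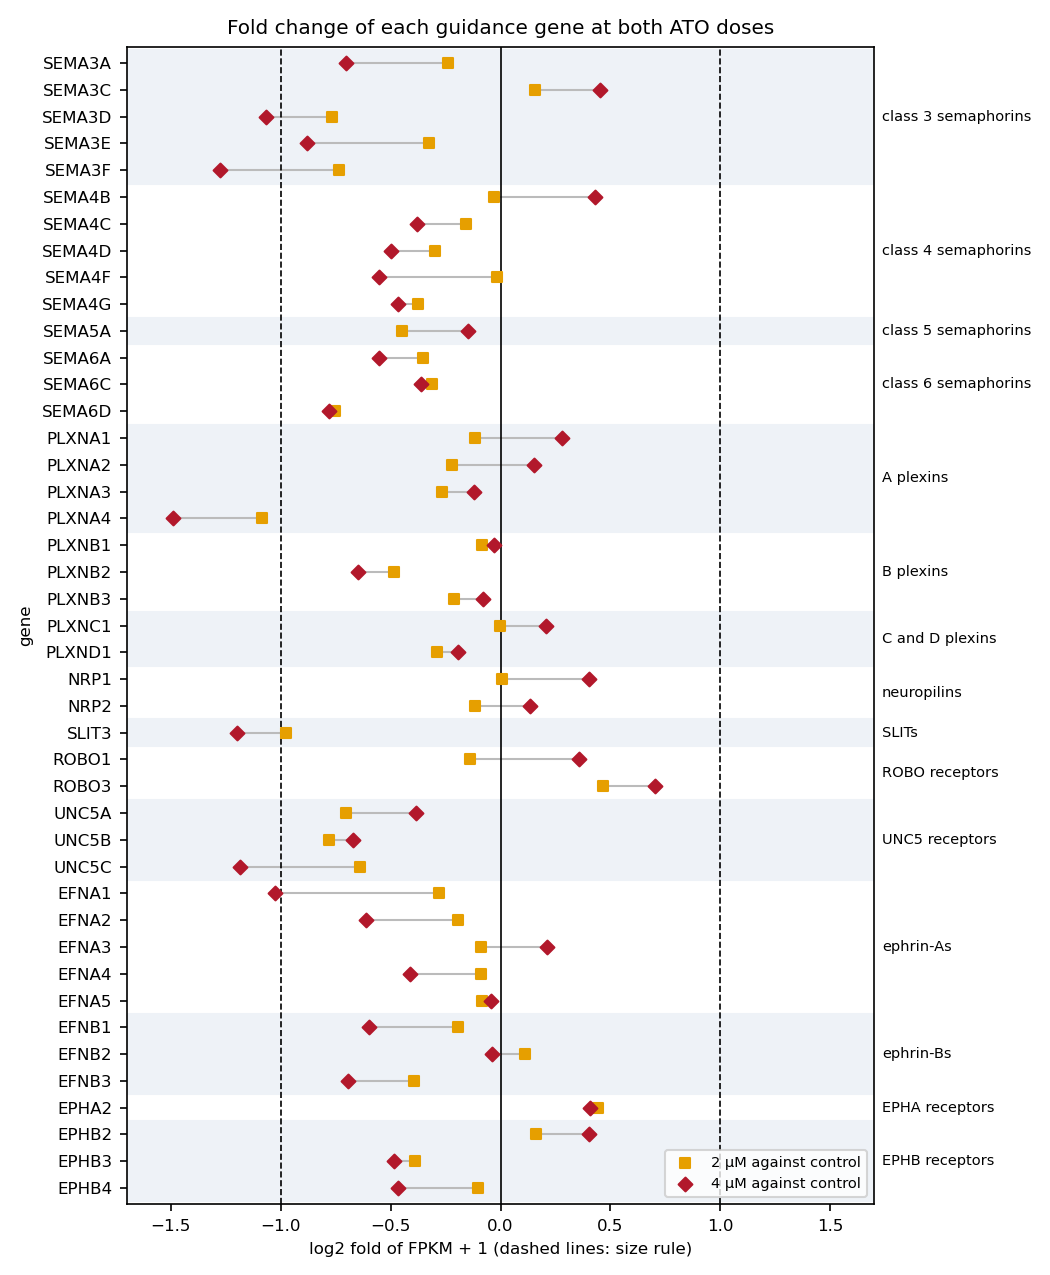
Log2 fold of FPKM + 1 against control for the 43 considered genes, grouped by family, with a square for 2 µM and a diamond for 4 µM. Dashed lines mark the size rule at -1 and 1. PLXNA4 lies farthest to the left at both doses, at -1.09 and -1.49, and ROBO3 farthest to the right, at 0.47 and 0.70.

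Semaphorins, the largest family here, had 14 of 20 genes considered. Class 3 semaphorins, the secreted ones, differed in direction among themselves. SEMA3C had 24.4, 27.3 and 33.8 FPKM in the control, 2 µM and 4 µM libraries, with log2 folds of 0.16 and 0.45. It was the highest ligand gene in all 3 libraries, and its level was higher with dose, though not past the size rule. SEMA3F, whose protein binds NRP2, had 2.91, 1.35 and 0.614 FPKM. The log2 folds of SEMA3F were -0.73 and -1.28, and at 4 µM the level was 21.1% of the control. The antisense row SEMA3F-AS1 was listed at 0.534, 0.545 and 0.513 FPKM. Without stated strand its reads cannot be told apart from those of SEMA3F wherever these genes overlap, and their overlap was not examined. SEMA3D had 2.37, 0.981 and 0.610 FPKM, with log2 folds of -0.76 and -1.06. SEMA3D and SEMA3F thus had their highest level in the control and their lowest at 4 µM, and both were considered only through their value in the control.

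The other class 3 genes considered did not pass the size rule. SEMA3E, the nearest to it, whose protein binds PLXND1 without a neuropilin, had 1.73, 1.18 and 0.487 FPKM, a log2 fold of -0.88 at 4 µM. SEMA3E too was considered only through its value in the control, and it passed at 4 µM with a pseudocount of 0.1 or as TPM. SEMA3A, the founding axon repellent that binds NRP1, had 2.86, 2.27 and 1.37 FPKM (-0.70 at 4 µM). Together the 6 class 3 genes other than SEMA3C summed to 10.5 FPKM in the control, 6.19 FPKM at 2 µM and 3.36 FPKM at 4 µM. The whole class summed to 34.9, 33.5 and 37.1 FPKM, so its total differed little while SEMA3C went from 69.9% of it to 81.5% and 91.0%.

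Among membrane semaphorins SEMA6D, a class 6 ligand of PLXNA1, was the highest in the control, with SEMA4C above it at both ATO doses. SEMA6D had 13.3 FPKM in the control, 7.50 FPKM at 2 µM and 7.35 FPKM at 4 µM. Its log2 folds were -0.75 and -0.78, and both ATO libraries stood at nearly the same level below the control. SEMA6A and SEMA6C, at 3.11 and 2.56 FPKM in the control, had log2 folds of -0.55 and -0.36 at 4 µM. SEMA4C, which binds PLXNB2, had 12.6, 11.2 and 9.45 FPKM. SEMA4B had 3.78, 3.68 and 5.43 FPKM and was the one class 4 gene with a positive log2 fold at 4 µM (0.43). SEMA4D, the ligand of PLXNB1, had 1.498, 1.03 and 0.769 FPKM and was likewise considered only through its value in the control. SEMA4F and SEMA4G had log2 folds of -0.55 and -0.47 at 4 µM. SEMA5A, a ligand of PLXNB3, was lowest at 2 µM, with 3.97, 2.64 and 3.48 FPKM.

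**Figure D3:**
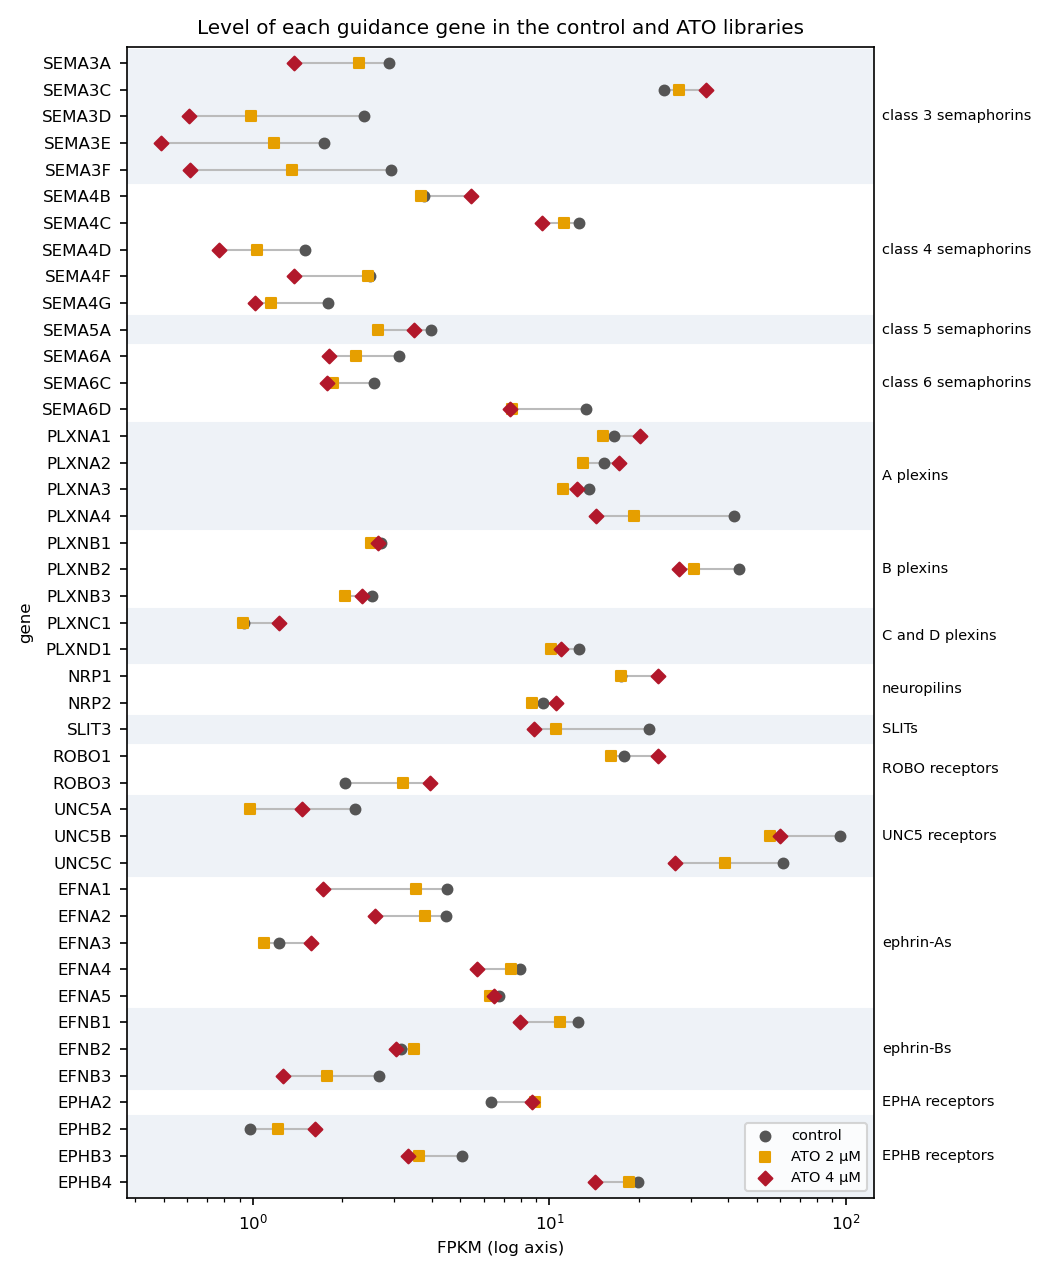
FPKM (log axis) of the 43 considered genes in the control (circle), ATO 2 µM (square) and ATO 4 µM (diamond) libraries, 1 library each, grouped by family. Most semaphorins have the control as their rightmost point, whereas SEMA3C, NRP1 and ROBO1 are highest at 4 µM.

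Plexins are the signalling receptors of semaphorins, and all 9 were considered. PLXNA4, which pairs with neuropilins to relay SEMA3A in mouse sensory and sympathetic axons, had 42.0, 19.2 and 14.3 FPKM. The log2 folds were -1.09 and -1.49, the largest among the 43 genes in either direction at each dose. Its level was 45.8% of the control at 2 µM and 34.1% at 4 µM. None of the related A plexins was lower by the size rule. PLXNA1 had 16.5, 15.2 and 20.3 FPKM, PLXNA2 had 15.3, 13.0 and 17.1 FPKM, and PLXNA3 had 13.6, 11.1 and 12.4 FPKM. Each was lowest at 2 µM, and the sum of these 3 was 45.4, 39.3 and 49.8 FPKM. PLXNA4 made up 48.0%, 32.9% and 22.3% of the A plexin sum in the 3 libraries, and at 4 µM PLXNA1 was the highest A plexin at 31.6%.

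PLXNB2, the most abundant plexin in every library, had 43.4, 30.8 and 27.3 FPKM, with log2 folds of -0.48 and -0.65. PLXNB1 and PLXNB3 stayed between 2.04 and 2.71 FPKM, and PLXND1 had 12.6, 10.2 and 10.9 FPKM. PLXNC1, the receptor of SEMA7A, had 0.930, 0.926 and 1.23 FPKM and passed the filter through its value at 4 µM. The signs at 4 µM of PLXNA3, PLXNB1 and PLXNB3, at log2 folds of -0.12, -0.03 and -0.08, turned under median-of-ratios or upper-quartile scaling.

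Neuropilins, the ligand-binding partners of the A plexins and co-receptors for VEGF, were not lower at 4 µM. NRP1 had 17.4, 17.5 and 23.3 FPKM, log2 folds of 0.01 and 0.40, and its sign at 2 µM turned under scaling. NRP2 had 9.53, 8.72 and 10.6 FPKM, with log2 folds of -0.12 and 0.13. Neither passed the size rule.

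**Figure D4:**
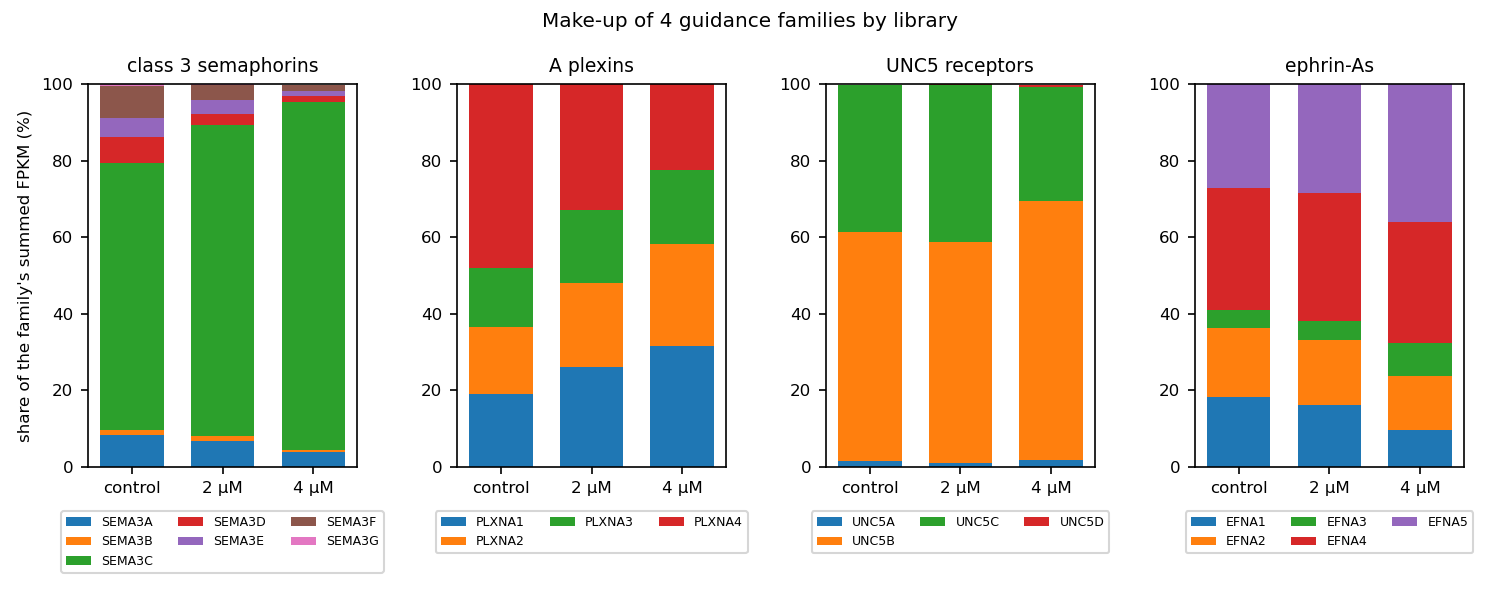
Share of each gene in the summed FPKM of its family, in percent, for class 3 semaphorins, A plexins, UNC5 receptors and ephrin-As in the control, ATO 2 µM and ATO 4 µM libraries (1 each). SEMA3C takes 69.9%, 81.5% and 91.0% of the class 3 sum, while the share of PLXNA4 among A plexins is 48.0%, 32.9% and 22.3%.

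SLIT3 carried nearly all of the SLIT signal. Its levels were 21.7, 10.5 and 8.88 FPKM, and the log2 folds were -0.97 and -1.20. At 2 µM it narrowly missed the size rule, and most of the difference was already present there. SLIT2, a midline repellent, had 1.17, 0.832 and 0.946 FPKM and SLIT1 at most 0.162 FPKM, so both stayed below the filter. Of the ROBO receptors, ROBO1 had 17.9, 16.2 and 23.2 FPKM, log2 folds of -0.14 and 0.36. ROBO3, which governs midline crossing of commissural axons, had 2.05, 3.22 and 3.95 FPKM. Its log2 folds of 0.47 and 0.70 were the highest of the 43 genes and did not pass the size rule. ROBO2 had 0.540, 0.269 and 0.431 FPKM, and ROBO4, the endothelial member, at most 0.286 FPKM.

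UNC5B was the highest guidance gene in every library and UNC5C the next in the control, in cells that held almost no netrin or DCC transcript. UNC5B had 95.9, 55.5 and 60.0 FPKM, with log2 folds of -0.78 and -0.67. Both ATO libraries were below the control, and the lowest was that at 2 µM. UNC5C had 61.6, 39.2 and 26.5 FPKM, with log2 folds of -0.64 and -1.19. Here the level was lower with each dose, to 43.1% of the control at 4 µM. UNC5A had 2.22, 0.977 and 1.46 FPKM, and UNC5D at most 0.537 FPKM, its value at 4 µM. The UNC5 sum was 160 FPKM in the control, 95.9 FPKM at 2 µM and 88.5 FPKM at 4 µM.

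DCC was listed at 0 in the control and at 4 µM and had 0.00794 FPKM at 2 µM. NEO1, a relative of DCC from the list of other guidance receptors below, had 23.7, 14.5 and 11.7 FPKM. Its log2 folds of -0.67 and -0.96 did not pass the size rule. NTN1, the classic netrin, had 0.0128, 0.00688 and 0.0887 FPKM. NTN3 was the highest netrin on average, with 0.610, 0.165 and 0.158 FPKM, and NTN4 and NTN5 had at most 0.377 and 0.0318 FPKM. All 4 netrins were thus below the filter. The antisense row UNC5C-AS1 had 7.84, 4.26 and 1.69 FPKM and a log2 fold of -1.72 at 4 µM. Use of strand in the counting was not given in the sources used here. Reads of UNC5C and UNC5C-AS1 therefore cannot be told apart wherever these genes overlap, and their overlap was not examined. In all, 13 antisense, intronic or read-through rows carried a member's name, and the other 12 had at most 0.594 FPKM in any library.

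Ephrin-As, which are tethered by a lipid anchor and bind mainly EPHA receptors, were all considered. EFNA1, the main ligand of EPHA2, had 4.53, 3.56 and 1.72 FPKM, log2 folds of -0.28 and -1.02, so the larger step was from 2 µM to 4 µM (-0.75). EFNA4 had 7.93, 7.40 and 5.71 FPKM and EFNA2 had 4.48, 3.79 and 2.59 FPKM. EFNA5 stayed within 6.32 and 6.76 FPKM and was the highest ephrin-A at 4 µM. EFNA3 had 1.22, 1.09 and 1.57 FPKM. Of the transmembrane ephrin-Bs, EFNB1 had 12.5, 10.8 and 7.94 FPKM and EFNB3 had 2.65, 1.78 and 1.26 FPKM, with log2 folds of -0.60 and -0.69 at 4 µM. EFNB2, the ligand of EPHB4, had 3.15, 3.49 and 3.04 FPKM. The small folds of EFNA5 and EFNB2 at 4 µM (-0.05 and -0.04) changed sign under scaling.

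Of 14 Eph receptor genes 4 passed the filter. EPHB4 had 19.96, 18.5 and 14.2 FPKM, log2 folds of -0.10 and -0.46. EPHB3 had 5.06, 3.62 and 3.33 FPKM, whereas EPHB2 had 0.976, 1.21 and 1.62 FPKM. EPHA2 was the only one of 9 EPHA genes to be considered and had 6.34, 8.97 and 8.74 FPKM, with log2 folds of 0.44 and 0.41. EPHA2 was thus higher at both doses by similar amounts, below the size rule, while its ligand gene EFNA1 was lower at 4 µM. The other 8 EPHA genes and EPHB1 and EPHB6 had at most 0.687 FPKM, the value of EPHA4 at 4 µM.

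The 26 genes below the filter comprised 12 ligands and 14 receptors. Only SLIT2 among them reached 1 FPKM in a library, and 10 were under 0.1 FPKM in every library. Besides the genes named above they were SEMA3B, SEMA3G, SEMA4A, SEMA5B, SEMA6B and SEMA7A, none above 0.669 FPKM. Without the filter the same 6 genes of the 69 were lower at 4 µM and 0 were higher.

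Because the study concerns DNA binding by N-Myc, promoter sequence was searched for its motif. RefSeq promoters (GRCh38.p14) were available for 59 of the 69 genes, with 91 starts. The 250 bases before each start were searched on both strands for CACGTG, the E-box bound by MYC proteins, which reads alike on both strands, and for TGACNNNGC, the core of the element bound by NRF2. CACGTG was in 4 of the 91 windows (4.40%), against 6.34% of 35116 windows of all genes. TGACNNNGC was in 8 (8.79%), against 10.9%. The windows with CACGTG belonged to SEMA3E, SEMA4D, SEMA6D and EPHA8, and none of the 6 genes lower at 4 µM had one. With 6.34% of all windows holding the motif, 6 genes are too few for this to show a lack of it. SEMA3E, at 28.1% of the control at 4 µM, was itself lower there with a pseudocount of 0.1 or as TPM. A match describes letters in a window and is not evidence of binding. Shown first are the windows of PLXNA4 (chr7:132576471-132576720, minus strand), SLIT3 (chr5:169301140-169301389, minus strand) and UNC5C (chr4:95548974-95549223, minus strand), the lower genes with the highest levels, which hold neither motif. Then follow those of SEMA3E (chr7:83649140-83649389, minus strand), SEMA4D (chr9:89495657-89495906, minus strand) and SEMA6D (chr15:47183839-47184088, plus strand), with CACGTG in capitals. All are written 5′ to 3′ on the strand of the gene.
PLXNA4: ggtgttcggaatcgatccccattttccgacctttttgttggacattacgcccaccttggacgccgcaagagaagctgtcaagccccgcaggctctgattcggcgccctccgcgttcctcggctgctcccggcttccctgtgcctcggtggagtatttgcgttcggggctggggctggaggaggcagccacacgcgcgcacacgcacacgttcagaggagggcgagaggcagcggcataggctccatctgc
SLIT3: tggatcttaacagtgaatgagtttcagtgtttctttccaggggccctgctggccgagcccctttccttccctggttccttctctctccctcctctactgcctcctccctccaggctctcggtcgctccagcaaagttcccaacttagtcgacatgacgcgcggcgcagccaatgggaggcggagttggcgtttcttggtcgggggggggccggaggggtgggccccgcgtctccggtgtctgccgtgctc
UNC5C: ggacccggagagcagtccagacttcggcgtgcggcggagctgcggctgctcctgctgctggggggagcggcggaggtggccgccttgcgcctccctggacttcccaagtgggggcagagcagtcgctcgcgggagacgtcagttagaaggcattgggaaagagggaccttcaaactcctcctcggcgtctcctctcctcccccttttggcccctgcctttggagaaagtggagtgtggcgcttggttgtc
SEMA3E: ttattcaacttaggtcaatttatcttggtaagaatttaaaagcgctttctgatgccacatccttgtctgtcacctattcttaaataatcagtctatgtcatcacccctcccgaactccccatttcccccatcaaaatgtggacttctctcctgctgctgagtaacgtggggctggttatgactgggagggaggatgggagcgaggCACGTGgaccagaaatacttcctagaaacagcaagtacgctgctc
SEMA4D: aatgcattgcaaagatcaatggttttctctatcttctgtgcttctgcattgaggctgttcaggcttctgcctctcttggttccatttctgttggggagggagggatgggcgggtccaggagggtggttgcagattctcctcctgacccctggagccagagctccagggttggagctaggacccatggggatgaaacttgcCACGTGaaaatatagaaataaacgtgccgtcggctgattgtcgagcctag
SEMA6D: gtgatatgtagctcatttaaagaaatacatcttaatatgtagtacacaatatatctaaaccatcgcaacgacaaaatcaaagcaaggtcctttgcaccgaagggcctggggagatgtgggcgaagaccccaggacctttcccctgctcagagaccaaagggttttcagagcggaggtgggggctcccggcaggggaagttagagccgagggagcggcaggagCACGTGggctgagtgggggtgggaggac

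In these windows CACGTG began 45 bases before the start of SEMA3E, 50 before that of SEMA4D and 28 before that of SEMA6D. The 3 genes had log2 folds of -0.88, -0.50 and -0.78 at 4 µM, none past the size rule with the pseudocount of 1. SEMA3E has 2 starts in the table and SEMA6D has 3, and the motif was at 1 start of each. GC content was 63.6% for PLXNA4, 62.8% for SLIT3 and 65.6% for UNC5C, and 46.4%, 52.4% and 53.6% for SEMA3E, SEMA4D and SEMA6D.

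Other guidance cues, receptors and adhesion molecules were described from a list of 32 genes, of which 21 were considered. Of these, 3 were lower and 1 was higher at 4 µM, where 5.27% and 4.19% of all considered rows were, and the median log2 fold was -0.25 beside -0.13. At 2 µM 1 was lower, where 0.901% of all considered rows were, and the median was -0.28 beside 0.01. CNTN1, an axonal adhesion protein of the immunoglobulin family, had 7.04, 2.78 and 1.04 FPKM, log2 folds of -1.09 and -1.98. BOC and CDON, related co-receptors for hedgehog ligands, had 9.10, 4.79 and 3.08 FPKM and 5.92, 2.74 and 2.06 FPKM. Their log2 folds at 4 µM were -1.31 and -1.18, and each of these 3 genes was lower with each dose. FLRT1, of an adhesion family that binds UNC5 receptors, had 0.313, 0.565 and 2.9996 FPKM (1.61 at 4 µM), and it was considered through its value at 4 µM.

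Cytoplasmic mediators of guidance signals were described from a list of 58 genes, of which 47 were considered. At 4 µM 3 were higher and 0 lower, where 4.19% and 5.27% of all considered rows were. At 2 µM 0 passed in either direction, where 2.06% of all considered rows did. Their median log2 fold was 0.02 at both doses, beside 0.01 and -0.13 over all considered rows at 2 µM and 4 µM. GRB10, an adaptor of receptor tyrosine kinases, had 0.535, 1.15 and 2.91 FPKM (log2 fold 1.35 at 4 µM), and it too was considered through its value at 4 µM. SRC, the kinase that acts below Eph and netrin receptors, had 6.80, 11.1 and 17.4 FPKM (1.23). SDCBP, which encodes syntenin, a scaffold that binds ephrin-B tails, had 34.0, 53.2 and 78.0 FPKM (1.18). VASP, an actin regulator, lay just below the rule at 4.79, 8.54 and 10.5 FPKM (0.99). All 4 were lowest in the control and highest at 4 µM.

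**Figure D5:**
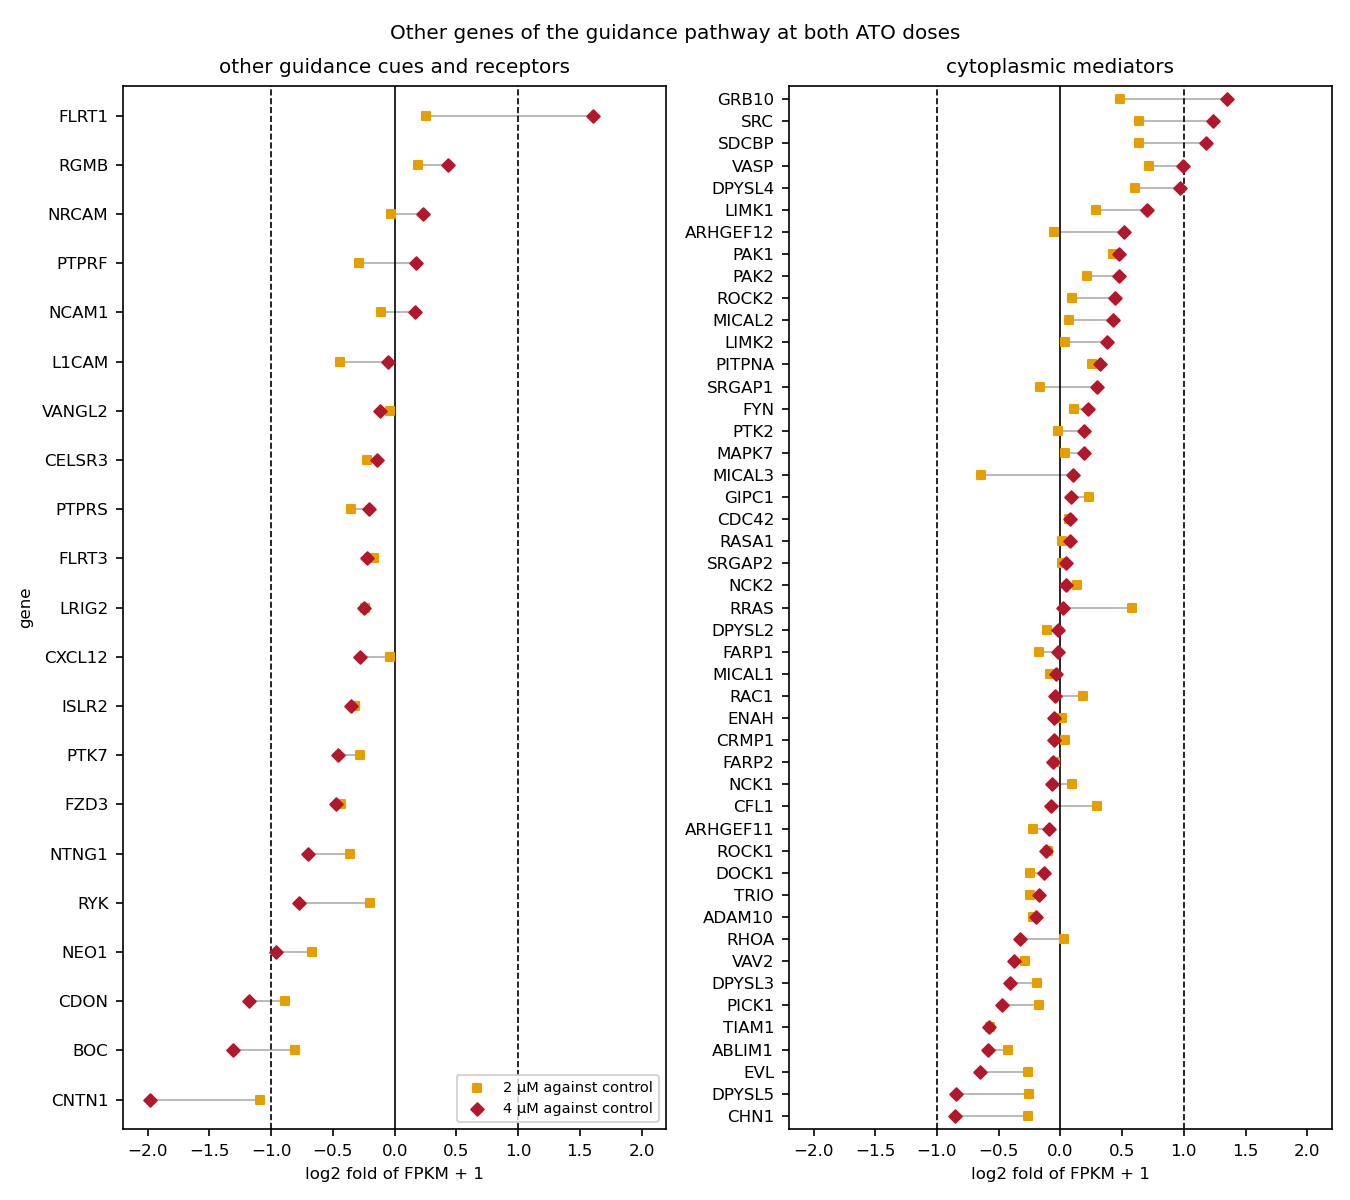
Log2 fold of FPKM + 1 against control for the 21 considered guidance cues and receptors outside the main families (left) and the 47 considered cytoplasmic mediators (right), with a square for 2 µM and a diamond for 4 µM and dashed lines at the size rule. CNTN1 lies lowest on the left panel at -1.98, and GRB10, considered through its value at 4 µM, highest on the right at 1.35.

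Counting precision could be judged only roughly, since counts were not used here. The spacing of low values of genes with 1 transcript gave about 35.8, 36.9 and 35.3 counted units per FPKM and kilobase in the control, 2 µM and 4 µM libraries. With the longest coding transcript of each gene, the 6 genes past the size rule rested on an estimated 82.5 units (SEMA3F at 4 µM) to 21786 units (UNC5C in the control). Whether a unit is a fragment or a mate could not be settled. Counting error is only a part of the error, and the spread between cultures was not measured.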

How the data were processed

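RNA libraries were paired-end TruSeq libraries, per the labels' protocols, 1 from each of 3 groups of SK-N-BE(2) cells. The authors deposited FPKM for every gene in each sample, per the file headers. The aligner, counter, annotation and use of strand were not given in the sources used here. GRCm38 and mm10, both mouse, appear in the submitters' processing notes, but rows carry human symbols, so gene coordinates are not given except for RefSeq promoters.

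Values were used as deposited. Log2 ratios of FPKM + 1 were taken with Python 3.11.15 and pandas 2.3.3. Rows averaging 1 FPKM or more were considered, and the size rule was a log2 fold of 1 or more in size. Each group had 1 library, so no test was run. The rule was run on simulated libraries, with planted folds well away from its limit, in well-expressed rows and with an assumed noise. That run checks the calculation only and does not show how often the rule errs on these data. Transcript lengths came from GENCODE 29. Named genes were those past the size rule, the highest of each family, and DCC, NTN1, NRP1, NRP2, ROBO1, ROBO2 and SLIT2. Up to 4 of each related list were named by the largest fold at 4 µM. Other members were added for their family. NEO1 was added as a relative of DCC, with its values known. The members and lists were chosen with earlier results of these data known. Alternatives were other pseudocounts, filters, scalings and a smaller size limit.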

Additional observations from a re-analysis of the deposited data

How the results depend on the processing

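With 0 higher members in each comparison, that count stayed at 0 under all settings except a size limit of 0.5, which gave 1 at 4 µM (ROBO3). The count of lower members at 4 µM (6) was 2 with a pseudocount of 5 (PLXNA4 and UNC5C), 3 with the filter raised to 5 FPKM and 16 at a limit of 0.5; the other settings gave 4 to 9, and median-of-ratios scaling kept PLXNA4, SEMA3F, SLIT3 and UNC5C. At 2 µM the count of 1 was 5 with a pseudocount of 0.1 and 5 as TPM, 0 with a pseudocount of 5, 2 with upper-quartile scaling and 8 at a limit of 0.5. From 2 µM to 4 µM the count of 0 was 3 with a pseudocount of 0.1 and 5 at a limit of 0.5. The median at 4 µM (-0.39) was -0.28 with median-of-ratios scaling, -0.11 without a filter, -0.49 with a pseudocount of 0.1 and -0.17 with 5. At 2 µM (-0.22) it was -0.12 both without a filter and with a pseudocount of 5. From 2 µM to 4 µM it was -0.05 and changed sign, to 0.015 as TPM, 0.0064 with the filter raised to 5 FPKM, 0.0087 after upper-quartile scaling and 0.057 after median-of-ratios scaling. TPM values were larger than the FPKM values and the pseudocount stayed at 1, so the TPM setting also acts as a smaller pseudocount. The cause of the differences between settings was not tested. No paired analysis was possible because each group had 1 library. No library could be left out for the same reason. Culture-to-culture variation was not measured, and low genes depend on the pseudocount.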

Other observations

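SLITRK6, a neuronal membrane protein gene whose extracellular part resembles SLIT and which lies outside the families described, was chosen after its values were seen. Its levels in the control, 2 µM and 4 µM libraries were 14.6, 8.25 and 6.997 FPKM. The log2 folds were -0.75 and -0.96 and did not pass the size rule. UNC5CL, a gene named for its likeness to the end of UNC5C, had 0.496, 0.763 and 0.552 FPKM.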
